A study of Mus musculus with 4 samples.

Results

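The complement genes described here are C1qa, C1qb and C1qc, which encode the chains of C1q, the components C2, C4b, C3 and Cfb, and the regulators Cfi and Serping1. They were found through the RefSeq accession that the array gives for each probe. All 9 were present among 20832 genes with a named probe. They had 11 probes in all, and for C3 and Serping1, which have 2 probes each, the probe with the higher mean signal stands for the gene. STAP-2-/- mice lack an adaptor protein that binds STAT3 and other signalling proteins, and they were set against wild-type (WT) mice. Both were C57BL/6J mice aged 14 weeks whose drinking water held 1.75% DSS (dextran sulfate sodium), which damages the lining of the gut and gives acute colitis. The labels give 3 days of DSS in one field and 7 days in another. Whole-colon RNA was pooled from 3 mice per sample, with 2 pools from STAP-2-/- and 2 from WT colons, and each pool was measured on 1 array. How Stap2 was disrupted is not given in the sources used here, and no colon without DSS was analysed here.

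Complement is a cascade of secreted proteins that marks microbes and damaged cells. C1q binds antibody and surface patterns and starts the classical pathway, in which C4b and C2 form an enzyme that cleaves C3. Cfb, factor B, supplies the enzyme of the alternative pathway, which amplifies C3 cleavage on surfaces. Cfi, factor I, degrades activated C3 and C4, and Serping1, the C1 inhibitor, blocks the proteases that C1q activates. The liver makes most complement of the plasma, while in the gut macrophages are a known source of C1q, and epithelial and stromal cells can make C3 and factor B.

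The 75th percentile of the signal was 2280 and 2348 on the STAP-2-/- arrays and 2134 and 2215 on the WT arrays, and 68.4% to 70.5% of the spots lay well above background. Levels below are log2 of the signal relative to that percentile, so 0 is the 75th percentile of the array, and levels of different probes are not comparable. Stap2 was well above background on both WT arrays and on 0 of the 2 STAP-2-/- arrays, and WT was at least 721.1-fold higher (adjusted p 0.314 by limma). Stap2 measured -6.63 and -7.72 in STAP-2-/- pools, against 2.92 and 2.98 in WT pools. The bound takes each STAP-2-/- array at the lowest signal well above background or its own signal, whichever is higher. All 12 epithelial markers checked were well above background on all 4 arrays. No gene passed the limma test between genotypes at an adjusted p of 0.05 (0% of 15559 genes), and 2.09% had an unadjusted p under 0.05. The labels call the pools biological replicates, so p-values measure the spread between pools. In whole colon, more cells of a type and more RNA per cell cannot be told apart.

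None of the 9 members passed the test between genotypes, and 0 of the 9 had an unadjusted p under 0.05, the lowest being 0.0908 for C2. All 9 were well above background on all 4 arrays. Mean levels were higher in STAP-2-/- than in WT colons for 6 members and lower for 3, where 48.3% of all tested genes were higher. The median log2 difference of the 9 members, STAP-2-/- minus WT, was 0.25, and over all tested genes it was -0.0068. The genotypes did not overlap for 5 members, 4 of them higher in STAP-2-/- colons (C1qa, C1qb, C2 and Cfb) and 1 lower (Cfi), a share of 55.6%. Among all genes 24.9% did not overlap, with 11.5% higher and 13.3% lower in STAP-2-/-. The difference rested largely on the second STAP-2-/- pool: without that array the median of the members was 0.034, against 0.21 to 0.22 when another array was left out.

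**Figure D1:**
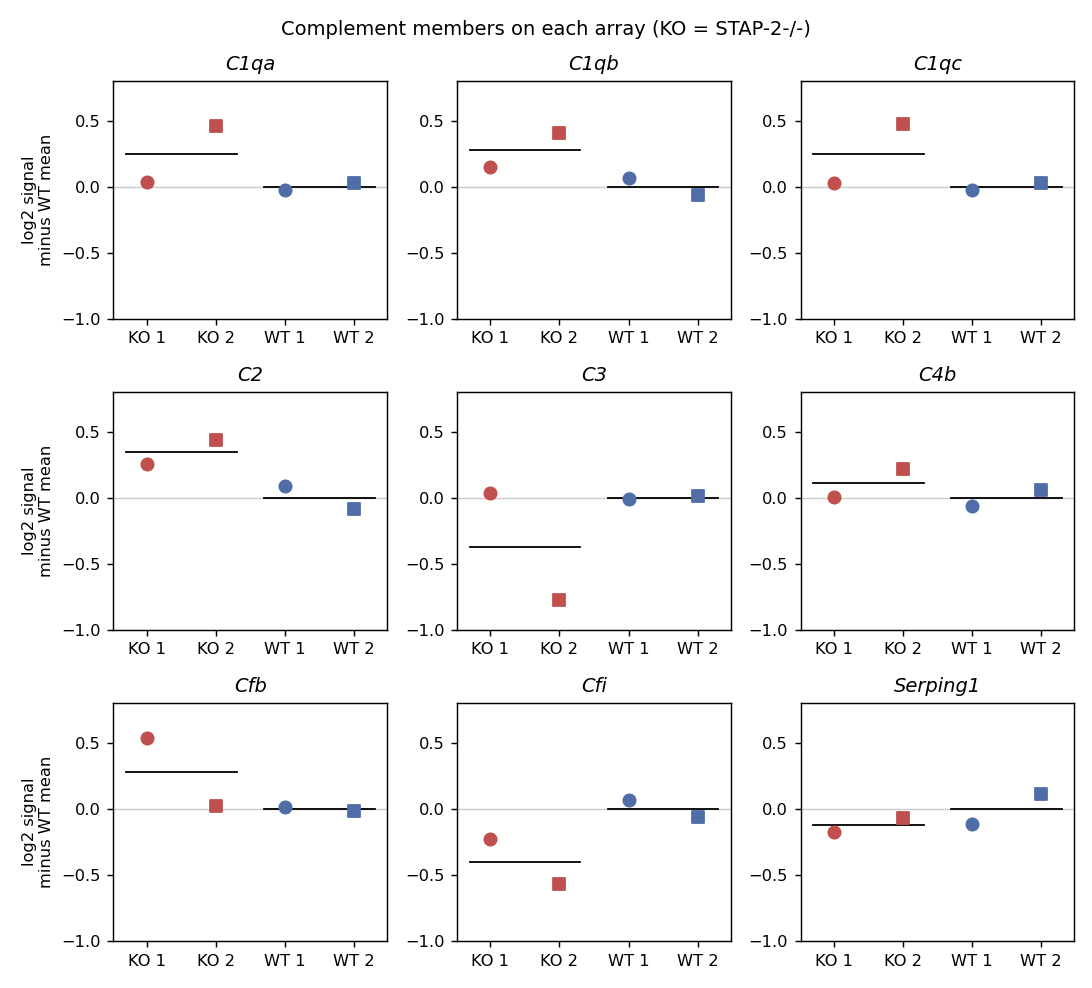
Log2 signal of each member on each array, minus the mean of the WT arrays (vertical axis, log2), with STAP-2-/- pools (KO 1 and KO 2, red) left of WT pools (blue), circles for pool 1, squares for pool 2 and lines for group means. The C1q chains were high and C3 low on KO 2, and Cfb was high on KO 1.

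C1qa and C1qc followed one another closely. C1qb did so less, falling from WT pool 1 to WT pool 2 where the others rose. The C1q genes lie next to each other on chromosome 4 in the RefSeq order of GRCm38.p6, with 0 protein-coding genes between neighbours. C1qa measured 0.52 and 0.94 in STAP-2-/- pools 1 and 2, against 0.46 and 0.51 in WT pools 1 and 2. C1qb measured 0.14 and 0.39 in STAP-2-/- pools, against 0.054 and -0.076 in WT pools. C1qc measured 1.18 and 1.63 in STAP-2-/- pools, against 1.13 and 1.18 in WT pools. For each chain the second STAP-2-/- pool was highest and the first lay near the WT pools, overlapping them for C1qc. The mean differences were 0.25 (SE 0.20) for C1qa, 0.28 (SE 0.16) for C1qb and 0.25 (SE 0.20) for C1qc, each with a limma adjusted p of 1. The 95% interval for C1qc ran from -0.33 to 0.82, so the data leave room for a difference in either direction.

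The ratio of C1qa to C1qc varied by 1.02-fold over the 4 arrays, and that of C1qb to C1qc by 1.16-fold. C1qc was spotted 10 times on each array, and the SD between its spots was 0.020 to 0.035 on the log2 scale. The gap between pools for C1qc was 0.45 in STAP-2-/- and 0.057 in WT colons. Without the second STAP-2-/- pool the differences of C1qa, C1qb and C1qc were 0.035, 0.15 and 0.024, and without the first they were 0.46, 0.40 and 0.47.

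Promoters are shown for the pair of C1q genes held in the RefSeq table (GRCm38.p6), C1qb and C1qc. In STAP-2-/- colons both genes were higher in pool 2. Between the WT pools they moved in opposite directions, by 0.13 for C1qb and -0.057 for C1qc, pool 1 minus pool 2. Each promoter is the 250 bases before the gene start on the minus strand, C1qb at chr4:136886201-136886450 and C1qc at chr4:136892915-136893164. Capitals mark matches to 5 motifs searched on both strands. These were the STAT motif TTCNNNGAA, the IRF motif, made of GAAA and GAAA with NN between them, the C/EBP motif TTGCNNAA, the PU.1 motif GAGGAAGT and the TATA motif TATAAA.
C1qb: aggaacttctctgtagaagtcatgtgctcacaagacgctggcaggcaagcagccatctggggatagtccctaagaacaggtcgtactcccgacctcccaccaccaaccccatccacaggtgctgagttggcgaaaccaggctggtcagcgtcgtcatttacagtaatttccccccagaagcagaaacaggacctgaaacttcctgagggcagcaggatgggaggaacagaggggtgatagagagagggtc
C1qc: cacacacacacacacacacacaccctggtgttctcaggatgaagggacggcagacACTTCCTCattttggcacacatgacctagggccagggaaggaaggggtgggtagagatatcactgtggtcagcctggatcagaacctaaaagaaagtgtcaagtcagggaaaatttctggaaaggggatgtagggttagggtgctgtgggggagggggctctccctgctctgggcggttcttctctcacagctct
The C1qc window held 1 match, ACTTCCTC, the PU.1 motif on the other strand, 195 to 188 bases before the start. PU.1 is a transcription factor of macrophages and other myeloid cells, and 2.44% of 32851 promoter windows of the same length hold this motif. No match to the motifs was found in the C1qb window, which says only that these letters are not there.

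Macrophage markers shared the pattern of the C1q chains only in part. Of 11 such markers on the array, 10 were tested and 0 passed, with 6 higher and 4 lower in STAP-2-/- colons and a median difference of 0.029. Their summed signal, in units of the 75th percentile of the array, was 15.3 and 16.6 in STAP-2-/- pools, against 14.8 and 16.4 in WT pools. Of the 10 markers, 7 were lower in pool 1 than in pool 2. That median was -0.24 without the second STAP-2-/- pool and 0.17 without the first. Of the 10 markers, 5 had their highest level in the second STAP-2-/- pool, as the C1q chains did: Adgre1, Cx3cr1, Mertk, Fcgr1 and Aif1. Aif1, a calcium-binding protein of macrophages, measured 1.18 and 1.84 in STAP-2-/- pools, against 1.37 and 1.56 in WT pools. Csf1r, the growth factor receptor of macrophages, measured 2.39 and 2.31 in STAP-2-/- pools, against 2.29 and 2.32 in WT pools. Its probe, the brightest tested one of the list, gave 5.23 and 4.96 of the summed signal in STAP-2-/- pools. In WT pools it gave 4.89 and 4.99. Such sums weigh bright probes most. Cd163, a scavenger receptor of resident macrophages, was well above background on 1 array only. The part of macrophage content in the C1q values was not tested.

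Of the components that join at C3 cleavage, C2 had the lowest unadjusted p of the members. C2, the protease subunit of the classical convertase, measured 0.75 and 0.93 in STAP-2-/- pools, against 0.58 and 0.41 in WT pools. Both STAP-2-/- pools lay above both WT pools. C2 averaged 0.84 ± 0.13 in STAP-2-/- and 0.50 ± 0.12 in WT colons (SD, n = 2 pools each). The difference of 0.34 (SE 0.15), a 1.27-fold higher mean, had a 95% interval from -0.088 to 0.78 and an adjusted p of 1 by limma. It lay between 0.25 and 0.44 whichever array was left out.

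Cfb, the neighbour of C2 on chromosome 17 with 0 protein-coding genes between them, showed another pattern. Cfb measured 2.62 and 2.10 in STAP-2-/- pools, against 2.09 and 2.06 in WT pools. The first STAP-2-/- pool stood above the other 3 arrays, which lay within 0.037 of each other. The difference was 0.28 (SE 0.22), and it was 0.022 without the first STAP-2-/- pool and 0.54 without the second. The ratio of C2 to Cfb varied by 1.63-fold over the 4 arrays, with its lowest value in the first and its highest in the second STAP-2-/- pool.

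C4b, the classical pathway component that binds covalently to surfaces, measured 1.77 and 1.98 in STAP-2-/- pools, against 1.70 and 1.82 in WT pools. The genotypes overlapped, and within each genotype pool 2 was higher. The difference was 0.11 (SE 0.15), and it was 0.0092 without the second STAP-2-/- pool and 0.22 without the first. Mice carry a near-identical gene, C4a, and whether the C4b probe tells the copies apart was not tested.

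C3, the component on which all complement pathways converge, had the widest gap between replicate pools. C3 measured 4.46 and 3.65 in STAP-2-/- pools, against 4.41 and 4.44 in WT pools. The second STAP-2-/- pool was low, and the other 3 arrays lay close together. The gap between the STAP-2-/- pools was 0.81, and that between the WT pools 0.023. The SD between the 9 spots used on an array, a technical spread only, was 0.017 to 0.037. The second C3 probe measured 3.59 and 2.83 in STAP-2-/- pools, against 3.45 and 3.42 in WT pools, and was likewise low on that array alone. C3 averaged 4.05 ± 0.57 in STAP-2-/- and 4.42 ± 0.016 in WT colons (SD, n = 2 pools each). The difference was -0.37 (SE 0.31), its 95% interval ran from -1.25 to 0.51, and its adjusted p by limma was 1. It was 0.034 without the second STAP-2-/- pool and -0.77 without the first. On the array where C3 was low the C1q chains were high, and the ratio of C3 to C1qc varied by 2.40-fold over the arrays.

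C3 lies on chromosome 17, as Stap2 does, with 50 protein-coding genes between them in the order of GRCm38.p6. Its promoter window, chr17:57228137-57228386 on the minus strand of that build, is shown because C3 had the largest difference between pools among the members.
C3: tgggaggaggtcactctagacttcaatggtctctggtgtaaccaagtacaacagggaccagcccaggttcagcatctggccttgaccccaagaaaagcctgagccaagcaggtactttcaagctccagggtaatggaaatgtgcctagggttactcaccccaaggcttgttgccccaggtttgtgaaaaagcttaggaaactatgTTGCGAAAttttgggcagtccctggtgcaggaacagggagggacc
Capitals mark the 1 match to the same 5 motifs, TTGCGAAA, the C/EBP motif, 45 to 38 bases before the start, a motif that 9.56% of promoter windows hold. C/EBP proteins are transcription factors of the acute-phase response.

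The regulators had lower means in STAP-2-/- colons. Cfi measured -5.84 and -6.18 in STAP-2-/- pools, against -5.54 and -5.67 in WT pools. Both STAP-2-/- pools lay below both WT pools, and the difference of -0.40 (SE 0.18) had a 95% interval from -0.91 to 0.11 and an adjusted p of 1 by limma. The Cfi probe was dim: its signal was 39.9 and 32.4 in STAP-2-/- pools and 45.7 and 43.4 in WT pools. The lowest signals well above background were 27.3 and 22.6 on the STAP-2-/- arrays and 29.2 and 22.7 on the WT arrays. Serping1 measured 2.25 and 2.35 in STAP-2-/- pools, against 2.30 and 2.53 in WT pools. The genotypes overlapped, and the difference was -0.12 (SE 0.15). It was -0.0031 without the second WT pool and -0.23 without the first. The second Serping1 probe measured 1.56 and 1.85 in STAP-2-/- pools, against 1.59 and 1.88 in WT pools, a difference of -0.028. By both probes pool 2 was above pool 1 in each genotype.

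**Figure D2:**
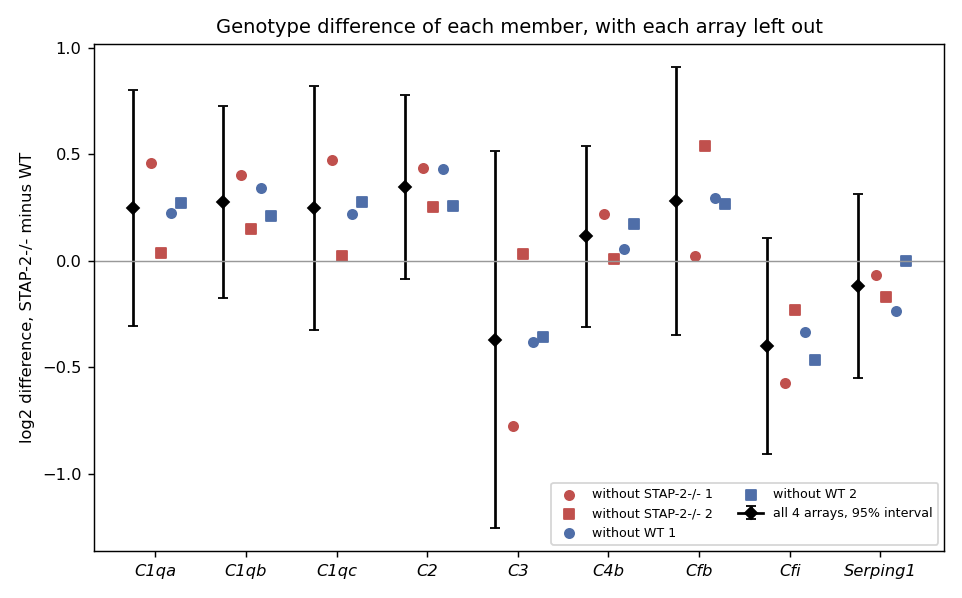
Log2 difference of each member, STAP-2-/- minus WT (vertical axis), from all 4 arrays with its 95% limma interval (black) and with each array left out in turn (red for a STAP-2-/- array, blue for a WT array, circles for pool 1, squares for pool 2). All 9 intervals include 0, and C3 lies at -0.77 without STAP-2-/- 1 and at 0.034 without STAP-2-/- 2.

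Pools numbered 1 were set against pools numbered 2 across both genotypes. In that comparison 3 of the 9 members did not overlap (33.3%), where 62.4% of all genes did not. These were C1qc, C4b and Serping1, all lower in pool 1, as were 26.4% of all genes. A further 36% of all genes, and 0 members, were higher in pool 1 with no overlap. The median log2 difference of the members, pool 1 minus pool 2, was -0.062, and that of all genes was 0.041. Pool differences had the same sign in both genotypes for 6 members, and for 77.3% of all genes.

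The members varied more between STAP-2-/- pools than between WT pools. The median absolute gap between pools over the members was 0.34 in STAP-2-/- and 0.12 in WT colons, and over all genes it was 0.29 and 0.18. The gap was wider in STAP-2-/- for 8 members, all but Serping1, as it was for 69.1% of all genes. Highest levels fell on the second STAP-2-/- array for 5 members (C1qa, C1qb, C1qc, C2 and C4b), and lowest levels for 2 (C3 and Cfi). How many of all genes had their highest or lowest level on that array was not counted. Between the pools numbered 1 the members' median difference, STAP-2-/- minus WT, was 0.060, and between the pools numbered 2 it was 0.16. No test of pool was made, since the labels do not say that a number marks a shared day or litter.

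**Figure D3:**
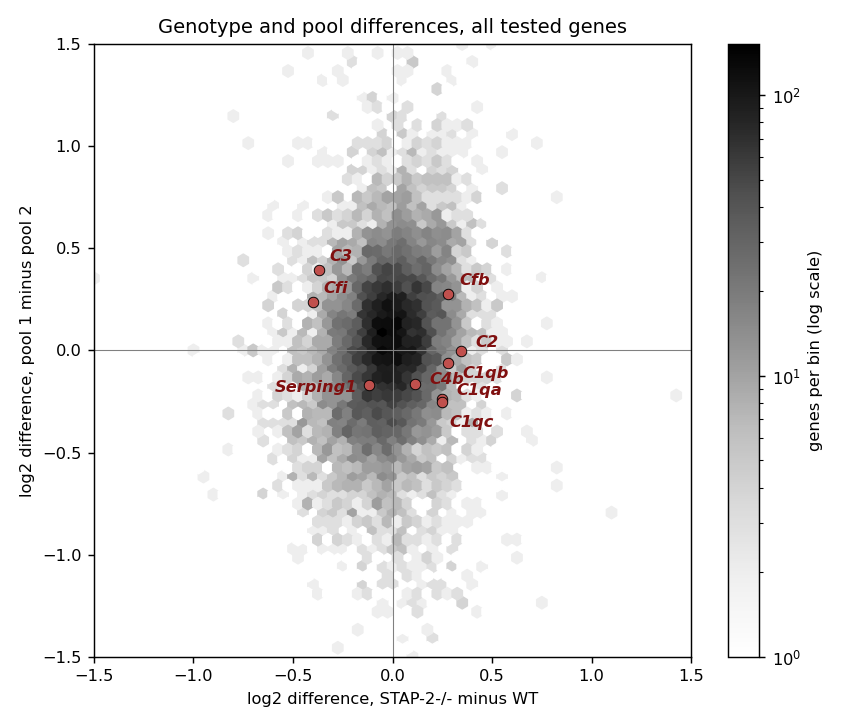
Log2 difference between genotypes, STAP-2-/- minus WT (horizontal axis), and between pools, pool 1 minus pool 2 (vertical axis), with grey bins for counts of all tested genes on a log scale and red points for the 9 members; 264 of 15549 genes lie beyond the axes. C3 and Cfi sit at the upper left, Cfb at the upper right, and the C1q chains to the right below 0.

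The other complement genes were mostly lower in STAP-2-/- colons. Of 50 other complement genes in 4 lists, 49 were on the array and 36 were tested. None passed the test, and 0 had an unadjusted p under 0.05. Means were higher in STAP-2-/- colons for 12 and lower for 24, with a median difference of -0.091. With 1 array left out, 12 to 16 were higher and the median lay between -0.15 and -0.019. The genotypes did not overlap for 9 of them (25%, against 24.9% of all genes), 3 higher and 6 lower in STAP-2-/-. The pools did not overlap for 20 (55.6%, against 62.4% of all genes).

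Among 11 tested genes of initiation and activation, 3 were higher and 8 lower in STAP-2-/- colons. Cfd, the protease that activates factor B and is made by fat cells, measured 5.09 and 4.45 in STAP-2-/- pools, against 5.74 and 5.16 in WT pools. Its levels did not overlap, and the difference was -0.68 (SE 0.34). The 8 adipocyte markers, 6 of them lower in STAP-2-/- colons, summed to 36.4 and 34.2 in STAP-2-/- pools, against 57.1 and 38.5 in WT pools, units of the 75th percentile. Their median difference was -0.57, and it was -0.066 without the first WT pool. Fabp4 alone gave 14.93 and 12.75 of these sums in STAP-2-/- pools and 25.57 and 17.47 in WT pools. Adipoq, which marks fat cells, was well above background on all 4 arrays, and the part of fat in the Cfd values was not tested. Colec10, a collectin, differed by -0.93 (SE 0.56), with the first STAP-2-/- pool low at -1.57 and the other 3 arrays between -0.079 and 0.29. Colec12, a scavenger collectin of the cell surface, differed by -0.32 (SE 0.15) with no overlap. The C1r and C1s genes, of the proteases that C1q activates, differed by -0.073 (C1ra), 0.048 (C1rb, SE 0.39), -0.055 (C1s1) and -0.15 (C1s2). Of these only C1s2 had no overlap between genotypes. Mbl1, Mbl2, Masp1, Masp2 and Fcnb, of the lectin pathway, were not well above background on any array. Fcna and Colec11, of the same pathway, were well above background on all 4 arrays. They differed by 0.13 (SE 0.14, no overlap) and -0.063 (SE 0.17, with overlap), and were named after their values were seen.

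Among 14 tested regulators other than Cfi and Serping1, 4 were higher and 10 lower, while 7 were higher without the second STAP-2-/- pool. Cpn1, the catalytic subunit of carboxypeptidase N, which inactivates the anaphylatoxins, measured -2.61 and -1.42 in STAP-2-/- pools, against -3.14 and -3.03 in WT pools. The groups did not overlap, and the difference of 1.069 (SE 0.45) had an adjusted p of 1 by limma. Cpb2, a plasma carboxypeptidase, differed by 0.61 (SE 0.33) and Susd4, a complement inhibitor, by -0.38 (SE 0.19), neither with overlap. Cd55, which breaks up the convertases on cell surfaces, differed by -0.24, with the second STAP-2-/- pool low at -0.24 and the other 3 arrays between 0.26 and 0.31. The values of C1ra, C1rb, C1s1, C1s2, Cd55 and Cpn2 are given for their role or size and were chosen after they were seen. Cpn2, the other subunit of carboxypeptidase N, measured -2.19 in the first STAP-2-/- pool, against -3.35 and -4.17 in WT pools. It was not well above background in the second STAP-2-/- pool, so its difference has no settled direction.

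Of the terminal components, C8a, C8b and C9 were not well above background on any array, and C6 was so on 1. The 3 tested were Hc, which encodes C5, at -0.26 (SE 0.32), C8g at 0.13 (SE 0.18) and C7 at 0.0081 (SE 0.20). All 8 complement receptors were tested, with 3 higher and 5 lower in STAP-2-/- colons and a median difference of -0.030, which was 0.44 without the first STAP-2-/- pool and -0.19 without the second. Vsig4, a C3b receptor of resident macrophages, differed by 1.083 (SE 0.70), Cr2, the C3d receptor of B cells, by -1.057 (SE 1.032) and Itgb2, a chain of the C3 fragment receptors of leukocytes, by 0.31 (SE 0.47). All of these overlapped between genotypes. C3ar1 and C5ar1, the anaphylatoxin receptors, differed by -0.00070 (SE 0.38) and -0.058 (SE 0.50), and these were chosen for their role after the values were seen.

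**Figure D4:**
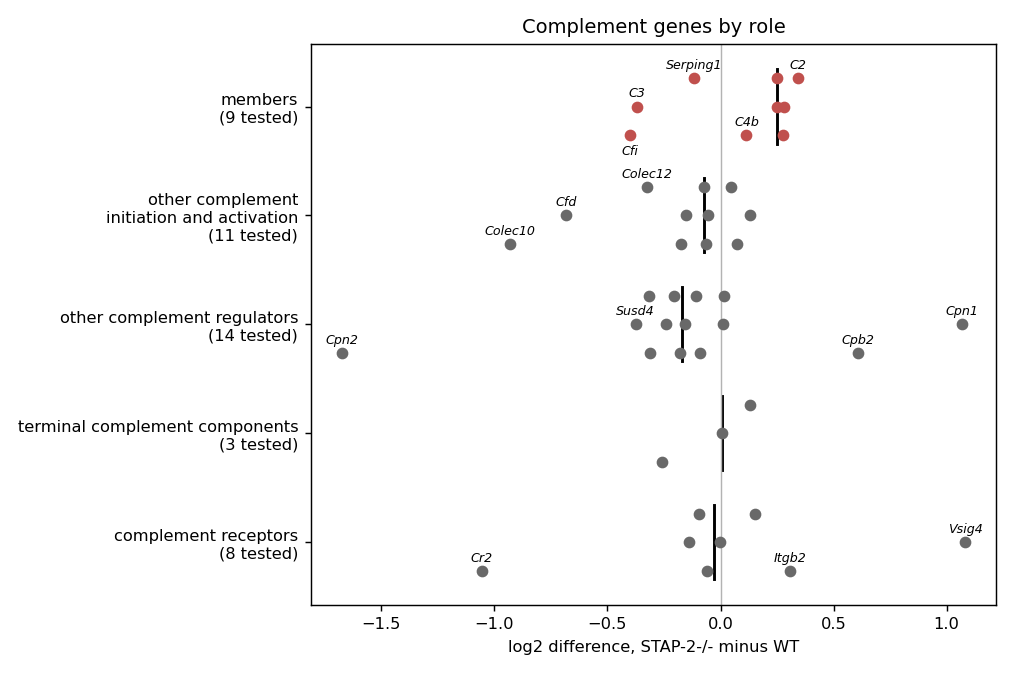
Log2 difference, STAP-2-/- minus WT (horizontal axis), of the 9 members (red) and of the other complement genes tested (grey), 1 row per role, with a black bar at each median; vertical scatter within a row only separates points. The members' median is 0.25, and those of the other rows lie between -0.17 and 0.0081; the leftmost point, Cpn2, rests on 1 array where its probe was not well above background.

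Genes of the interferon response, which induces C2, Cfb, C4b and Serping1 in several cell types, were high on the second STAP-2-/- array. All 15 on the array were tested, 0 passed, and 13 were higher and 2 lower in STAP-2-/- colons, with a median difference of 0.58. Their summed signal was 33.9 and 64.2 in STAP-2-/- pools, against 32.3 and 37.2 in WT pools, units of the 75th percentile, and no marker of the list was below background. Without the second STAP-2-/- pool their median difference was -0.063, and without the first 1.24. C1qa, C1qb, C1qc, C2 and C4b had their highest level on that same array, and Cfb and Serping1 did not. The share of all genes that were highest there was not counted. The part of the interferon response in the members' values was not tested.

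No gene of the other lists passed the test either. NF-kB response genes, 1 higher and 10 lower of 11 tested, summed to 27.1 and 29.9 in STAP-2-/- pools, against 31.6 and 32.0 in WT pools. All 10 fibroblast markers had lower means in STAP-2-/- colons, with a median difference of -0.31, and summed to 80.6 and 73.4 in STAP-2-/- pools, against 84.8 and 107.5 in WT pools. Without the second WT pool that median was -0.038, with 5 of the 10 higher in STAP-2-/- colons. Dcn alone gave 44.92 and 38.65 of the fibroblast sums in STAP-2-/- pools and 49.58 and 50.7 in WT pools. Neutrophil markers, 7 tested, had a median difference of -0.51, which was 0.68 without the second WT pool and -1.61 without the first. They summed to 57.4 and 45.0 in STAP-2-/- pools, against 58.8 and 54.1 in WT pools. Csf3r alone made up 56.8 and 43.5 of these sums in STAP-2-/- pools and 58.2 and 49.97 in WT pools, and the median deviation of the list was lower in pool 1 of each genotype. The 4 T cell markers tested had higher means in STAP-2-/- colons, by 0.21 for Cd4 to 1.51 for Cd8a. For 3 of them the genotypes did not overlap, where 24.9% of all genes did not. Cd3e, Cd3d and Cd8a were highest in the second STAP-2-/- pool, and the share of all genes highest there was not counted. Cd8a measured -4.98 and -2.59 in STAP-2-/- pools, against -5.58 and -5.02 in WT pools. The 5 B cell markers had lower means, with differences from -1.045 for Ms4a1 to -0.012 for Cd22, all with overlap. Epithelial markers, 12 tested, had a median difference of 0.012. Liver and pancreas markers summed to 17.5 and 2.08 in STAP-2-/- pools, against 10.3 and 3.95 in WT pools. Cela1 alone gave 14.7 and 1.69 of these sums in STAP-2-/- pools and 8.89 and 3.11 in WT pools. The sum was lowest on the array where C3 was low, and the 5 tested markers had a median deviation of -1.28 there. Cpa1 and Pnlip, which were not tested, were highest on that array, at -4.67 and -5.54. Each was well above background on 1 array only. Alb, which defines hepatocytes, was near background and well above it on 3 arrays, and Fgb on none. Single markers of the lists were chosen for naming after their values were seen. The part of these cell types in the members' values was not tested.

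**Figure D5:**
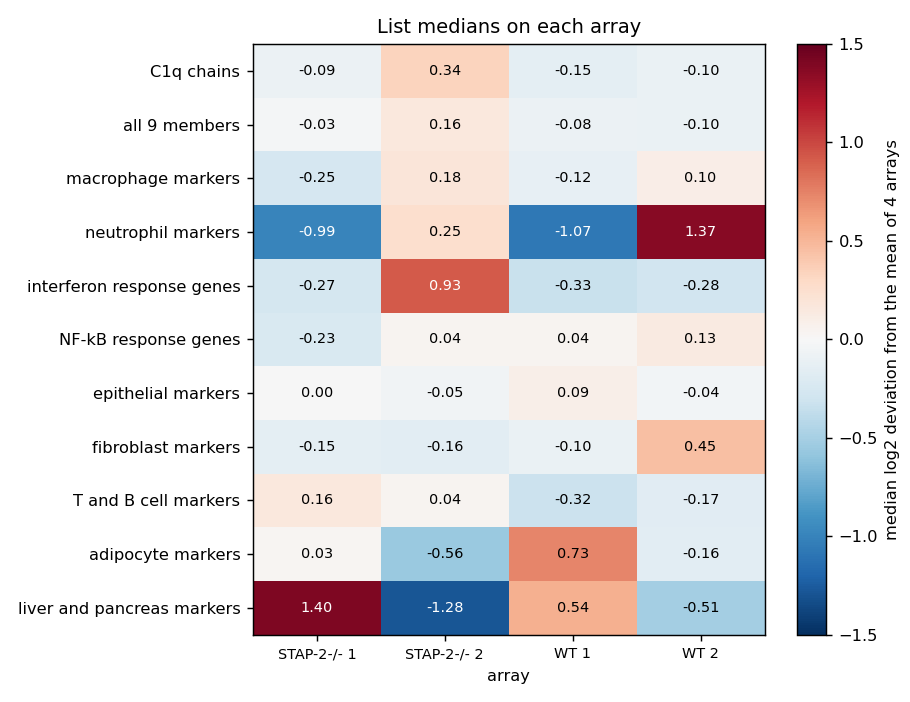
Median log2 deviation from the mean of the 4 arrays (colour and number) for the C1q chains, all 9 members and each list (rows) on each array (columns, STAP-2-/- left of WT). The C1q chains stand at 0.34 and interferon response genes at 0.93 on STAP-2-/- 2, while macrophage markers stand at 0.18 there and at 0.10 on WT 2.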

How the data were processed

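The authors deposited scanner output with 1 processed signal intensity per spot, from which background had been subtracted and spatial trends removed but which was not scaled across arrays, per the file headers. Median spot and background intensities stand beside it. The submitters' processing notes name Agilent Feature Extraction 10.7.1.1. A value table that the authors deposited gives a ratio, the processed signal over 1 constant per array (within 1% for at least 99.94% of the probes compared), and served as an alternative. From these, log2 signals were taken relative to the 75th percentile of the non-control spots of each array. Outlier-flagged spots were left out and spots of a probe averaged. Of 39429 probes, 27427 were named by unversioned accession through RefSeq (GRCm38.p6). The array design names build mm9, so no gene coordinates are given apart from the promoters of that RefSeq table.

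Genes entered the test where both arrays of either genotype had the probe well above background. The fit was limma 3.58.1 (lmFit and eBayes, R 4.3.3) over all genes with Benjamini-Hochberg adjustment at 0.05. It was tried on simulated arrays with independent errors, while deviations of equally numbered arrays correlated by 0.63 in the data. That trial therefore does not give the error rate of the fit in these data. The members, lists and naming rule were chosen with earlier results of these data known. Named genes are all members, Stap2, and the 3 genes per other complement list with the largest genotype difference among those well above background on all arrays; the 5 genes nearest in pattern to the C1q chains and to C3 are named as well, apart from 1 that is not reported here. With 2 arrays per genotype, the number of arrays limits the precision. Normexp, an alternative, was run on median spot and background intensities. Tables were read in Python 3.11.15 (pandas 2.3.3, numpy 2.4.6), and figures drawn with matplotlib 3.10.9.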

Additional observations from a re-analysis of the deposited data

How the results depend on the processing

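No member was called under any of the alternatives run: quantile or median scaling, a 75th percentile restricted to probes detected on every array, the deposited value table, normexp, no filter on dim probes or a stricter one, outlier spots retained, averaging over a gene's probes, an intensity trend with robust fit, the replicate block, and each array left out. Normexp called 1 gene, Stap2 (limma adjusted p 0.00447), where the reported setting called 0. In the reported setting even Stap2, the disrupted gene, had a limma adjusted p of 0.314. A member that was not called is therefore no sign that the genotypes were equal. With the replicate number as a block (replicate block), 0 genes and 0 members passed. The members' median of 0.25 could not move there, since each genotype has 1 array of each number. In that limma fit 1 member, Cfi, had an unadjusted p under 0.05 (0.0363, adjusted 0.699), as had 6.69% of all genes. Deviations of equally numbered arrays from their genotype means correlated by 0.63 over 15144 genes, but the labels do not say what the number stands for, and only 2 pairs exist. With 1 array left out, the members' median difference by genotype ran from 0.034 (without STAP-2-/- 2) to 0.22, and by pool from -0.18 (without either WT array, which leaves the STAP-2-/- pools) to -0.023. Of the alternative values of single members, 136 kept their direction and 1, for C3, turned. Values from a changed filter, the intensity trend with robust fit and the replicate block could not turn, since these leave a member's difference as it was. Averaging over a gene's probes could change only C3 and Serping1, the members with 2 probes. Retaining outlier spots moved only C3, from -0.3697 to -0.3691. C3 lay between -0.77 (without STAP-2-/- 1) and 0.034 (without STAP-2-/- 2) with 1 array left out. Counts with no overlap were 4 to 6 members higher and 1 to 2 lower with 1 array left out, where 20.8% to 39.8% and 25.9% to 39.7% of all genes did so. The second probe, tried after seeing the data, gave -0.22 for C3 and -0.028 for Serping1. Cfi is limited by its dim signal.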

Other observations

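Over the 4 arrays, 15135 genes other than the members were searched for patterns near those of the members, by Euclidean distance of log2 values after the mean of each gene was removed. Nearest to the mean of the C1q chains were Pms2, Cep152, Trim34a, Ptprr and Irf9, at distances of 0.026 to 0.037. Irf9, a subunit of the complex that transmits type I interferon signals, deviated by -0.029 and 0.30 in STAP-2-/- pools 1 and 2, against -0.14 and -0.13 in WT pools, and the C1q mean by -0.060 and 0.32, against -0.125 and -0.13. Among the nearest to C3 were Adamts2, Pla2g2d, Ctsk and Olfr704, at distances of 0.061 to 0.12. Ctsk, the collagen-degrading cathepsin K, deviated by 0.30 and -0.55 in STAP-2-/- pools, against 0.095 and 0.16 in WT pools. With 4 arrays many genes lie near any such pattern, so these names are a description.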
